A study of Mus musculus with 7 samples.

Results

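The 10 genes described here mark the production of glutamatergic neurons in the pallium, the dorsal forebrain that becomes cortex. They are Neurog1, Neurog2, Neurod1, Neurod2, Neurod6, Tbr1, Eomes, Fezf2, Slc17a6 and Slc17a7. Every array probe whose RefSeq transcript belongs to one of these symbols was taken, which gave 12 probes for the 10 genes, out of 17178 named genes on the array. Neurod2 and Slc17a6 had 2 probes each and every other gene had 1.

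They were measured in microdissected subpallium (ganglionic eminences and septum) of female CD-1 embryos at E12.5, 1 brain per array, on Agilent 1-colour microarrays. In the 3 embryos labelled Otx2 cKO, RxCre recombined a floxed Otx2 allele; the 4 others are labelled control, and the sources used here do not give their alleles. The series description dates the loss of Otx2 to about E8.5 and about E10.0 and states that RxCre spares a caudal dorsomedial part of the forebrain with the choroid plexus and cortical hem. Litter 2 gave cKO replicates 1 and 3 and control replicates 2 and 3, and each other embryo was the only one of its litter; slide 1 held cKO replicate 1 and control replicates 1 and 2, and slide 2 held the rest.

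In the pallium, progenitors switch on the proneural basic helix-loop-helix factors Neurog2 and Neurog1, which start neuronal differentiation and favour a glutamatergic over a GABAergic fate. Eomes and Neurod1 follow in intermediate progenitors and newborn neurons, and Neurod2, Neurod6 and Tbr1 in postmitotic neurons. Fezf2 directs subcerebral projection neurons, and Slc17a6 and Slc17a7 encode the vesicular transporters VGLUT2 and VGLUT1 that load glutamate into synaptic vesicles. The ganglionic eminences, in contrast, make mainly GABAergic neurons under Dlx and Gsx homeobox factors.

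The Otx2 probe went against the label. Its log2 signal was 1.73, 2.27 and 1.72 in cKO replicates 1 to 3, against 0.13, 0.48, 0.42 and 0.50 in control replicates 1 to 4 (difference 1.52 ± 0.17, SE; limma adjusted p = 0.0288). Leaving out any 1 array ended that call (differences of 1.34 to 1.62, adjusted p = 0.0534 to 0.137). The sources used here do not say whether the probe lies in the deleted part of the gene, so every direction below is that of the arrays labelled Otx2 cKO. The dissected tissue carried its defining markers: 14 of 14 named genes of a subpallial GABAergic list were well above background on all 7 arrays. So were all 12 genes of a pallial progenitor list and all 12 probes described here, so transcripts of these genes were detected in both groups. Which cells of the dissected tissue gave them was not tested. Markers of mesenchyme and pericytes varied most, with per-array medians from -1.69 to 1.98 log2 units around the control mean in cKO arrays and from -2.14 to 0.84 in controls. On each array 68.4% to 72.2% of spots were well above background, and no spot was saturated.

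None of the 10 genes passed the test between the groups. Values are log2 signals relative to the 75th percentile of the same array, and a difference of 1 is 2-fold. With limma and Benjamini-Hochberg adjustment over 13341 genes, 0 of the 9 genes that could be tested had an adjusted p under 0.05, where 0.21% of all genes did (28 genes, 12 higher and 16 lower; with quantile normalization 7 higher and 17 lower). Without adjustment, 1 of the 9 had a higher signal at p under 0.05 (Neurog1) and 3 a lower one (Neurod2, Neurod6 and Slc17a7); among all genes 4.3% and 6.78% did. The median difference of the 9 was -0.03, beside 0.02 over all genes tested. Of the 9, 3 genes had differences between -0.80 and -0.76, 1 had 0.43 and the other 5 lay between -0.25 and 0.13.

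**Figure D1:**
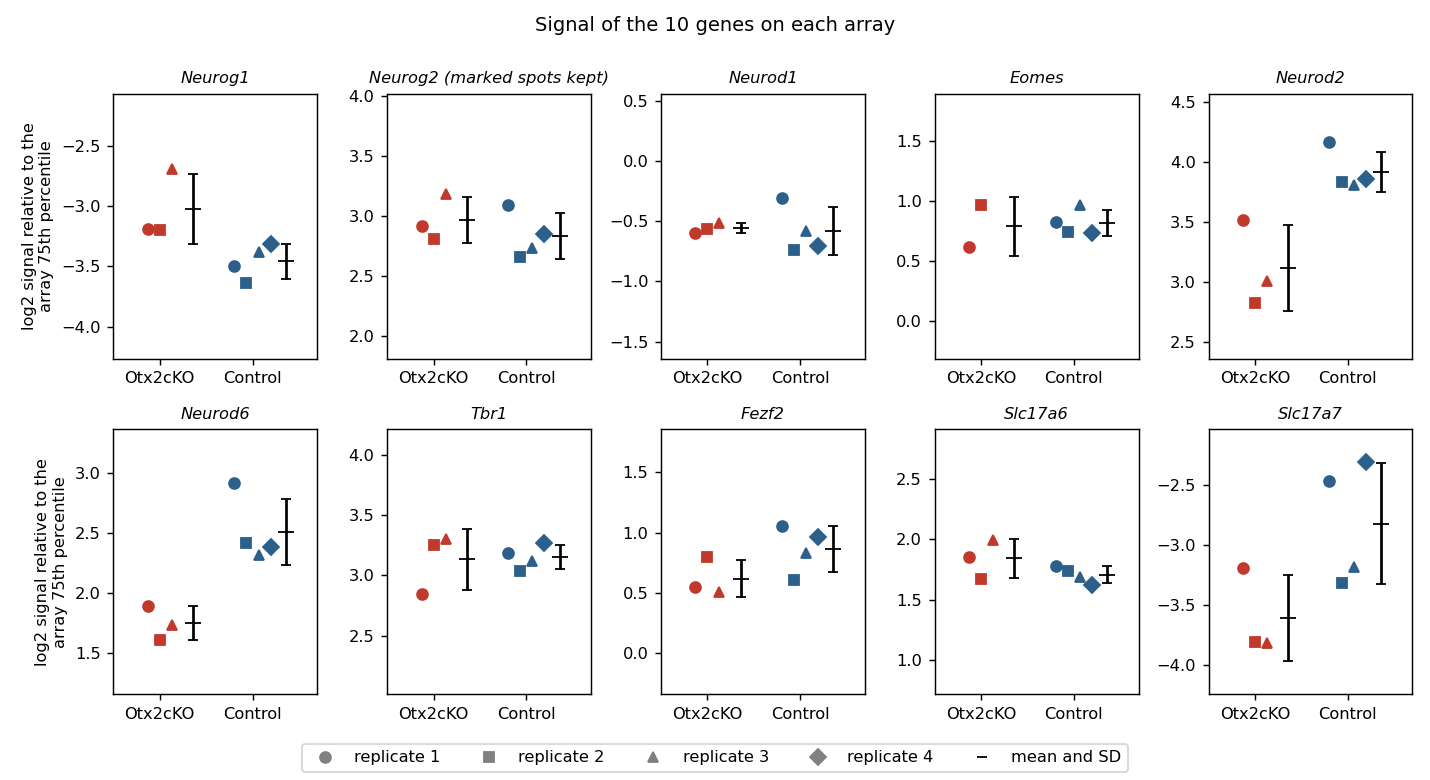
Log2 signal of each of the 10 genes relative to the 75th percentile of the array (y axis, 1 panel per gene, panels of equal height in log2 units), with 1 point per array and the mean and SD beside each group. The cKO points lie below every control point in the Neurod2 and Neurod6 panels and above every control point in the Neurog1 panel; in the other panels the groups overlap, and Eomes lacks cKO replicate 3, whose spot was marked as an outlier.

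The proneural factors come first in the programme. Neurog1, a proneural factor of a subset of pallial progenitors, had log2 signals of -3.19, -3.19 and -2.69 in cKO replicates 1 to 3, against -3.50, -3.64, -3.38 and -3.31 in control replicates 1 to 4. All 3 cKO values lay above all 4 control values, with cKO replicate 3 the highest. The difference was 0.43 ± 0.15 (SE; limma adjusted p = 0.385), 0.38 on slide 1 and 0.40 on slide 2. It was 0.27 without cKO replicate 3. The signal was dim, though well above background on every array, and with spots marked as outliers kept in the scaling the groups overlapped (0.42 ± 0.17).

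Neurog2, the main proneural factor of the pallium, could not be tested with the other genes, because the scanner software marked its spot as an outlier on 5 of the 7 arrays. The unmarked spots read 3.02 in cKO replicate 1 and 2.97 in control replicate 4. With marked spots kept on all arrays, Neurog2 read 2.92, 2.81 and 3.18 in cKO replicates 1 to 3, against 3.09, 2.66, 2.74 and 2.85 in control replicates 1 to 4. The groups overlapped in part: control replicates 2 and 3 lay below every cKO array, and cKO replicate 3 above every control. The difference in that fit was 0.13 ± 0.14 (SE; limma adjusted p = 0.765), and 0.16 in the authors' deposited table of log2 values.

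Eomes, the T-box gene of intermediate progenitors, read 0.61 and 0.96 in cKO replicates 1 and 2 and 0.82, 0.74, 0.96 and 0.73 in control replicates 1 to 4; the spot of cKO replicate 3 was marked and left out. The control values lay inside the range of the pair of cKO values but for control replicate 3, just above it. The difference was -0.03 ± 0.13 (SE, limma adjusted p = 0.962). Neurod1, a basic helix-loop-helix factor of newborn neurons, read -0.60, -0.56 and -0.52 in cKO replicates 1 to 3, against -0.30, -0.74, -0.58 and -0.71 in control replicates 1 to 4. The cKO values fell in the middle of the control spread, and the difference was 0.02 ± 0.12 (adjusted p = 0.962; 95% interval -0.26 to 0.31).

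Neurod6 and Neurod2 had the smallest p of the 10 genes. Both belong to the NeuroD family and are switched on as pallial neurons leave the cell cycle; in mouse cortex they act on axon growth and neuronal differentiation. Neurod6 read 1.89, 1.61 and 1.74 in cKO replicates 1 to 3, against 2.91, 2.42, 2.32 and 2.38 in control replicates 1 to 4. Every cKO array was below every control array, and control replicate 1 stood apart as the highest. The difference was -0.76 ± 0.16, a 1.69-fold lower signal in cKO, ranking 142 of 13341 by p (unadjusted p = 0.00235; limma adjusted p = 0.221; 95% interval -1.14 to -0.38). The difference was -0.77 on slide 1, -0.67 on slide 2 and -0.55 among the embryos of litter 2, and -0.62 ± 0.098 without control replicate 1.

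The brighter Neurod2 probe read 3.52, 2.83 and 3.01 in cKO replicates 1 to 3, against 4.17, 3.83, 3.81 and 3.86 in control replicates 1 to 4. Again no cKO value reached the control range, and control replicate 1 was the highest. The difference was -0.80 ± 0.18 (SE; unadjusted p = 0.00331, limma adjusted p = 0.243; 95% interval -1.23 to -0.37), 1.74-fold lower in cKO. The dimmer Neurod2 probe read -0.59, -1.52 and -1.46 in cKO replicates 1 to 3 and -0.03, -0.26, -0.73 and -0.54 in control replicates 1 to 4. On this probe cKO replicate 1 lay within the control range, and the difference, -0.80 ± 0.27 in a fit of every probe, had the same size (adjusted p = 0.374). On slide 1, which holds cKO replicate 1, the brighter probe differed by -0.48; it differed by -0.91 on slide 2 and by -0.55 among the embryos of litter 2.

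Of the 9 genes tested, 3 had groups that did not overlap: Neurod6 and Neurod2, lower in cKO, and Neurog1, higher. Among all genes tested 12.7% had groups that did not overlap, 7.26% lower and 5.45% higher in cKO. In bulk tissue, fewer cells of a type and less RNA per cell cannot be told apart.

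The promoters of Neurod2, Neurod6 and their relative Neurod1 are shown because the first pair had similar differences and the last did not differ beyond its spread. Each window runs from 250 bases before to 50 after the RefSeq transcript start in GRCm38.p6, read 5′ to 3′ on the minus strand. Capitals mark matches to the E-box CANNTG, the core that basic helix-loop-helix factors bind; the motif reads the same on both strands. The windows are chr11:98329596-98329895 for Neurod2, chr6:55681214-55681513 for Neurod6 and chr2:79456587-79456886 for Neurod1.
Neurod2: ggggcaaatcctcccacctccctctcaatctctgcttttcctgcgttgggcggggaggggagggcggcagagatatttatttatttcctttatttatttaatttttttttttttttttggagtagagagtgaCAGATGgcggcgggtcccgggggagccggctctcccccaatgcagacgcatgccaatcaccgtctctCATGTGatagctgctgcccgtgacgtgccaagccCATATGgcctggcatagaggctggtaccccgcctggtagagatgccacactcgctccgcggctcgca
Neurod6: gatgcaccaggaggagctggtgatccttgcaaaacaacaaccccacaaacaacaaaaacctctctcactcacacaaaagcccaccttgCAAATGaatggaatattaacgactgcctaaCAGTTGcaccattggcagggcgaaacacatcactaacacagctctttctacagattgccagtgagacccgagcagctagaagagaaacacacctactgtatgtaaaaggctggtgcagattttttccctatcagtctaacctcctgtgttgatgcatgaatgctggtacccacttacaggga
Neurod1: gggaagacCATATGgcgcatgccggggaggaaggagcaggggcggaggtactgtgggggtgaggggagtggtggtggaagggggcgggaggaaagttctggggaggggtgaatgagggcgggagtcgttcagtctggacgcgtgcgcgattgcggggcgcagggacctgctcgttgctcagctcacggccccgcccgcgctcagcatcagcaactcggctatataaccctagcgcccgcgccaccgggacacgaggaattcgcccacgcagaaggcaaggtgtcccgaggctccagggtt

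Neurod2 had 3 E-boxes: a CAGATG lay 118 bases before the start, a CATGTG lay 51 bases and a CATATG 17 bases before it. Neurod6 had 2, with a CAAATG at 162 bases and a CAGTTG at 132 bases before the start, and Neurod1 had 1, a CATATG at 242 bases. RefSeq windows were found for 10 of the 10 genes, 11 windows in all since Slc17a6 has 2 starts, and 8 of the 11 held at least 1 E-box. That share is not unusual: 72.3% of all 32851 promoter windows of this length hold an E-box. Among the 13606 windows of genes tested, 65.5% do. The CATATG form was in 3 of the 11 windows, in 3.91% of all promoters and in 2.08% of those of genes tested. The CAGATG form, searched on both strands, was in 2 of the 11, in 17.2% of all and in 12.4% of those of genes tested. The CAGCTG form was in 0 of the 11, in 16.3% of all and in 15.8% of those of genes tested. TAATCC, the core that Otx homeodomains bind, searched on both strands, was in 0 of the 11 windows. It was in 7.06% of all promoters and in 5.67% of those of genes tested. A match, or the lack of one, describes these letters only.

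Tbr1 and Fezf2, transcription factors of deep-layer projection neurons, had smaller differences than Neurod2 and Neurod6, though the contrast between genes was not tested. Tbr1 read 2.84, 3.25 and 3.31 in cKO replicates 1 to 3, against 3.19, 3.04, 3.12 and 3.27 in control replicates 1 to 4. The highest and the lowest array were both cKO. The difference was -0.02 ± 0.13 (SE; limma adjusted p = 0.972; 95% interval -0.33 to 0.29). Fezf2 read 0.55, 0.79 and 0.50 in cKO replicates 1 to 3, against 1.05, 0.60, 0.83 and 0.96 in control replicates 1 to 4. The groups overlapped through cKO replicate 2 and control replicate 2, and the difference was -0.25 ± 0.13 (adjusted p = 0.547).

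**Figure D2:**
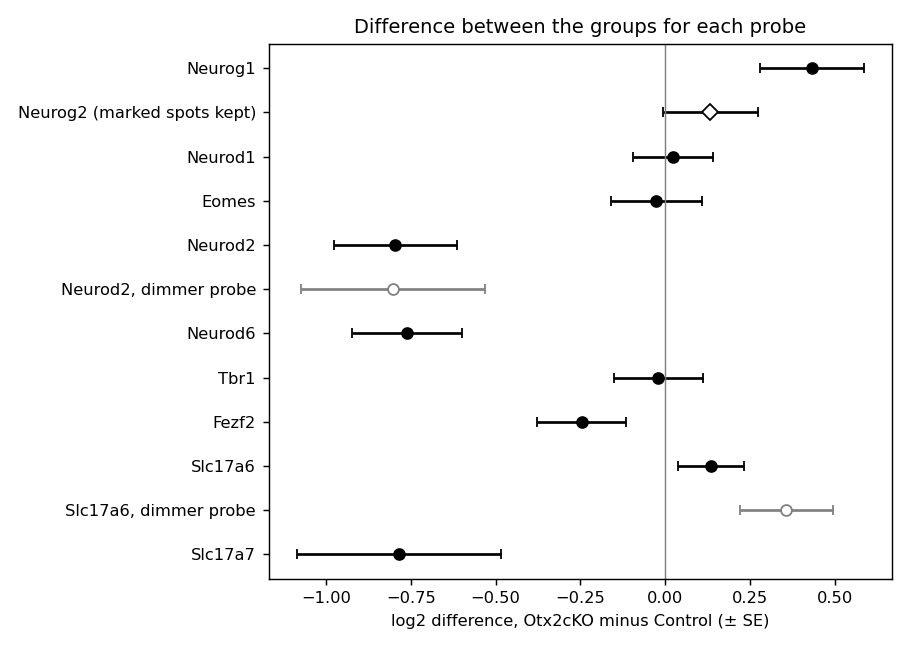
Log2 difference, Otx2cKO minus Control (x axis), with its moderated SE, for each gene in the order of the programme; filled points are the brightest probe, open circles the dimmer probes of Neurod2 and Slc17a6, and the open diamond Neurog2 with marked spots kept. Neurod2 on both probes, Neurod6 and Slc17a7 sit near -0.8, Neurog1 sits at 0.43, and Neurod1, Eomes and Tbr1 sit within 0.03 of 0.

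The glutamate transporters had differences of opposite sign. Slc17a6, the transporter gene used first in most developing glutamatergic neurons, read 1.86, 1.67 and 2.00 in cKO replicates 1 to 3, against 1.78, 1.74, 1.69 and 1.63 in control replicates 1 to 4 on its brighter probe. The groups overlapped, with a difference of 0.13 ± 0.097 (SE; limma adjusted p = 0.653). Its dimmer probe read 1.70, 1.39 and 1.76 in cKO replicates 1 to 3 and 1.02, 1.41, 1.25 and 1.37 in control replicates 1 to 4. There only cKO replicate 2 fell within the control range, and the difference was 0.36 ± 0.14 (adjusted p = 0.428), so the probes had 1 sign and different sizes.

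Slc17a7, which becomes the main transporter gene of mature cortical neurons, was dim. It read -3.19, -3.81 and -3.82 in cKO replicates 1 to 3, against -2.47, -3.32, -3.19 and -2.31 in control replicates 1 to 4. Control replicates 1 and 4 were the highest arrays, and cKO replicate 1 lay between control replicates 2 and 3. The difference was -0.78 ± 0.30 (SE; limma adjusted p = 0.414), but -0.30 on slide 1, -1.06 on slide 2 and -0.25 among the embryos of litter 2.

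Ratios within an array remove the scaling between arrays. The ratio of Neurod6 to Neurog2 (marked spots kept), as log2 minus the control mean, was -0.65, -0.98 and -1.10 in cKO replicates 1 to 3, against 0.17, 0.08, -0.13 and -0.12 in control replicates 1 to 4. Neurod6 over Neurod1 gave -0.60, -0.92 and -0.84 in cKO replicates 1 to 3, against 0.13, 0.07, -0.19 and -0.004 in control replicates 1 to 4. Both ratios placed every cKO array below every control array. The ratio of Neurod2 to Tbr1 was -0.09, -1.18 and -1.06 in cKO replicates 1 to 3, against 0.22, 0.03, -0.08 and -0.17 in control replicates 1 to 4, so cKO replicate 1 stayed among the controls. These pairs were chosen after the values were known and carry no test.

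**Figure D3:**
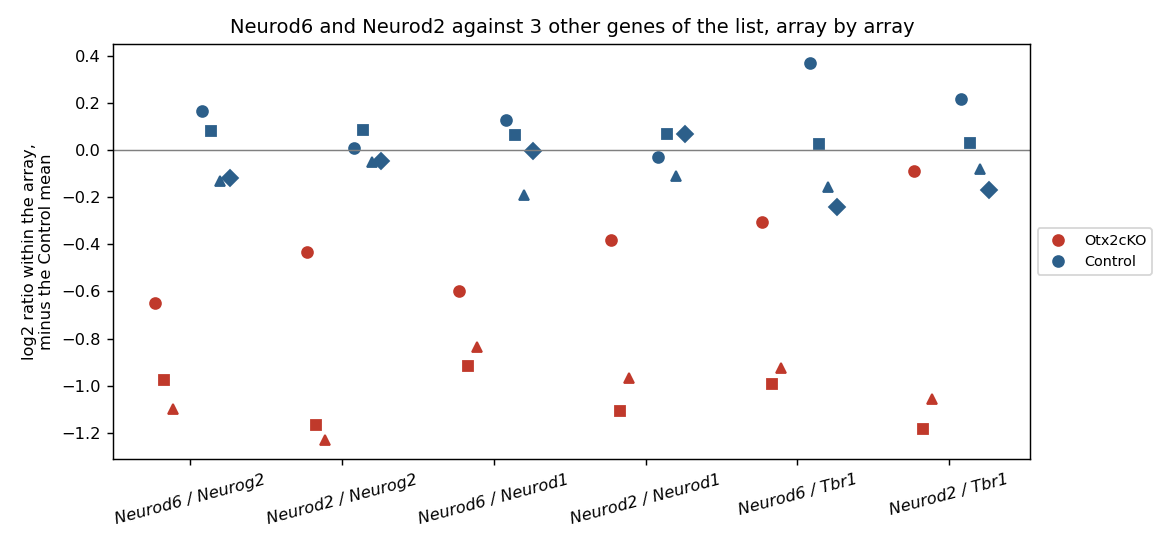
Log2 ratio of Neurod6 or Neurod2 to Neurog2, Neurod1 or Tbr1 within each array, minus the control mean (y axis), with 1 point per array and the same marker shapes for replicates 1 to 4 as in the plot of signals. In 5 of the 6 ratios all 3 cKO points lie below all 4 control points; in Neurod2 over Tbr1, cKO replicate 1 (-0.09) lies among the controls.

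Other genes of the same pathway were taken from lists of 14, 18 and 12 genes for the proneural cascade, glutamatergic projection neurons and pallial progenitors. Of 12 tested genes of a proneural cascade list, 0 passed the test over all genes. Nhlh2, a basic helix-loop-helix gene of newborn neurons, read -1.04, -1.06 and -1.12 in cKO replicates 1 to 3, against -1.46, -1.57, -1.47 and -1.57 in control replicates 1 to 4. That is 0.45 ± 0.072 higher without overlap (limma adjusted p = 0.101). Nhlh1 differed by 0.21 ± 0.12, without cKO replicate 2 and control replicates 3 and 4, whose spots were marked. Neurod4 and the Notch modifier Mfng differed by 0.38 ± 0.25 and -0.24 ± 0.098, and the list's median was 0.05.

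Of 15 tested genes of a glutamatergic projection neuron list, 0 passed. In the list 10 had negative and 5 positive differences, with a median of -0.13, beside 6115 negative and 7226 positive among all 13341 genes. The 4 with the smallest p were the transcriptional regulator genes Mef2c, Lmo3 and Cux2 and the transporter gene Slc17a8 (VGLUT3). Mef2c read -0.32, -0.34 and -0.51 in cKO replicates 1 to 3, against 0.0005, -0.06, 0.22 and 0.19 in control replicates 1 to 4, a difference of -0.48 ± 0.10 (limma adjusted p = 0.221). Lmo3 differed by -0.45 ± 0.12, Cux2 by -0.43 ± 0.15 and Slc17a8 by 0.37 ± 0.16. Over the whole list 1 gene had a higher and 4 a lower signal in cKO without overlap between the groups, out of 15, beside the 12.7% of all genes. Mef2c and Lmo3 are also used by GABAergic neurons.

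Most pallial progenitor genes had positive differences. Of 11 tested, 0 passed, 10 had positive differences and 1, Emx1, a negative one, with a list median of 0.29. Over all 13341 genes tested, 7226 differences were positive and 6115 negative. In 4 of the 11 the signal was higher in cKO without overlap, and in 0 lower, beside 5.45% and 7.26% of all genes. Emx2, a homeobox gene of dorsal progenitors, read 0.25, 0.50 and 0.39 in cKO replicates 1 to 3, against -0.34, -0.01, -0.34 and -0.03 in control replicates 1 to 4, a difference of 0.56 ± 0.12 (limma adjusted p = 0.227). Lhx9 differed by 0.60 ± 0.18, Dmrta1 by 0.49 ± 0.14 and Hopx by 0.41 ± 0.19. Emx1, a homeobox gene that is largely restricted to the pallium, read 0.15, -0.08 and -0.34 in cKO replicates 1 to 3 and 0.45, 0.003, -0.12 and -0.06 in control replicates 1 to 4 (-0.16 ± 0.18). Control replicate 1, highest for Neurod2, Neurod6, Neurod1 and Fezf2, was the highest for Emx1 too; whether the dissection took in a varying amount of pallium was not tested.

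**Figure D4:**
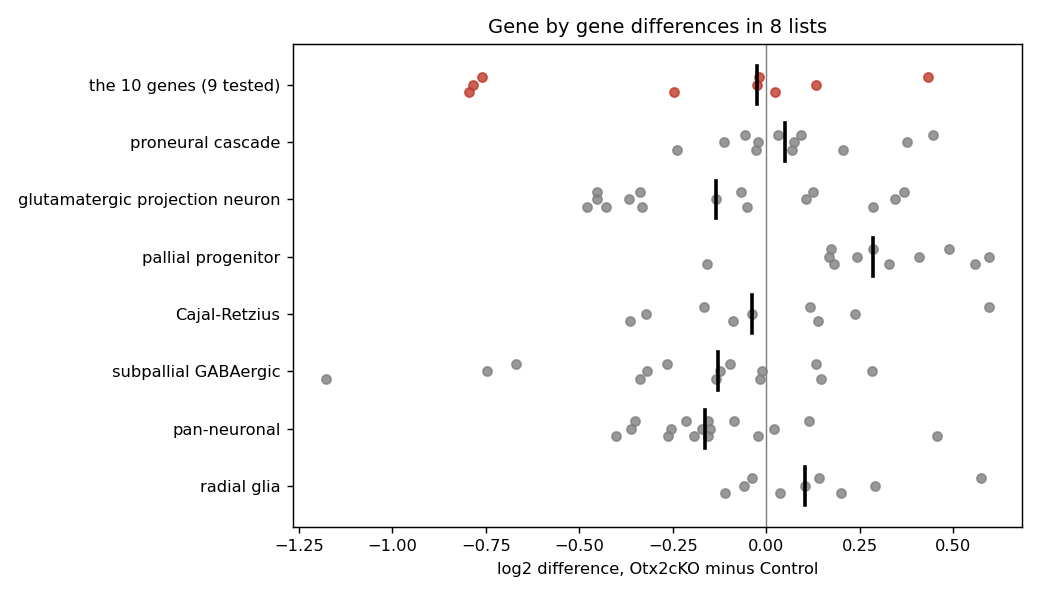
Log2 difference, Otx2cKO minus Control (x axis), with 1 point per tested gene and a black bar at the median of each of 8 lists, the 10 genes described here in red at the top. The red points spread from -0.80 to 0.43 around a median of -0.03, while the median is 0.29 for pallial progenitor genes and -0.16 for pan-neuronal genes.

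Cajal-Retzius neurons, early glutamatergic neurons of the cortical surface, share Tbr1 and Slc17a6 with the genes above. Of 9 tested genes of their list 0 passed, with Lhx5 at 0.60 ± 0.15, Trp73 at -0.37 ± 0.11, Reln, which encodes reelin, at -0.32 ± 0.13, Calb2 at 0.24 ± 0.17 and a median of -0.04. Of 9 tested genes of a diencephalic and hypothalamic list 1 passed, the homeobox gene Gbx2, lower in cKO (-1.89 ± 0.17, limma adjusted p = 0.0171). That call ended where 0 genes passed, without cKO replicate 3 or any 1 of control replicates 2 to 4. Which cells of the dissected tissue gave the Gbx2 signal was not tested. Over the list 6 differences were positive and 3 negative, with a median of 0.20. Irx1 and Lef1 differed by 0.64 ± 0.18 and 0.30 ± 0.22 without passing. Sim1 did not pass either (adjusted p = 0.354 with limma); it was well above background on 5 of the 7 arrays and at the floor of the scale in control replicates 1 and 2, so no size of difference is given for it.

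Genes of neurons in general and of GABAergic neurons also had mostly negative differences. Of 16 tested pan-neuronal genes 0 passed and 13 were negative (median -0.16; Tubb3 -0.35 ± 0.094, Mapt -0.36 ± 0.12, Stmn2 -0.26 ± 0.10, Crmp1 -0.22 ± 0.087). Of 14 tested subpallial GABAergic genes 0 passed and 11 were negative, with a median of -0.13. Lhx6 differed by -1.18 ± 0.15 (limma adjusted p = 0.0515), Gad1 by -0.67 ± 0.13 and Gad2 by -0.34 ± 0.078. Without overlap between the groups, 7 of the 14 were lower in cKO and 1 higher. Of the 16 pan-neuronal genes 7 were lower that way and 0 higher, beside 7.26% of all genes lower and 5.45% higher. Over all 13341 genes tested, 6115 differences were negative and 7226 positive. The neuronal tubulin gene Tubb3 read 6.06, 5.84 and 6.02 in cKO replicates 1 to 3, against 6.32, 6.31, 6.45 and 6.21 in control replicates 1 to 4. Its difference was smaller than those of Neurod2 and Neurod6, and the part of neuron number in any of these values was not tested. Radial glia genes had a median of 0.10, with 0 of 9 passing (Hes1 0.58 ± 0.17, Fabp7 0.20 ± 0.097, Vim 0.29 ± 0.17, Slc1a3 0.14 ± 0.13).

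Non-neural markers did not separate the groups: 0 of 9 mesenchyme and pericyte, 6 endothelial, 5 microglia and macrophage, 6 erythroid and 4 choroid plexus genes passed. The smallest p in each belonged to Dcn (-2.71 ± 1.85, without cKO replicate 2 and control replicate 1, whose spots were marked), Cldn5 (-0.24 ± 0.34), Aif1 (0.24 ± 0.23), Epb42 (0.78 ± 0.42) and Kl, which was well above background on 3 of the 7 arrays and has no size of difference here. The choroid plexus gene Ttr did not rise well above background on any of the arrays. With each array's mesenchyme median as a covariate, Neurod6 differed by -0.76 and Neurod2 by -0.81 (limma adjusted p = 0.237 and 0.231).

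The genes whose values followed the list most closely within the groups were ranked next. The mean group-centred profile of the 8 of the 10 with unmarked spots on all arrays was set against 11649 other genes over the 7 arrays. The highest Pearson r belonged to Inhba (0.976), Ptgfrn (0.971), Hydin (0.96), Ahcyl2 (0.947) and Josd1 (0.946), and without control replicates 1 and 2, farthest from the profile's median, these were 0.9, 0.982, 0.925, 0.772 and 0.854. With 7 arrays and this many genes, such values are a description only.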

How the data were processed

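Per the labels' protocols, RNA of each brain was linearly amplified with a Cy3 label and put on an Agilent mouse array of 1 colour. Per the file headers, Agilent Feature Extraction 10.7.3.1 gave each spot an intensity, background-subtracted and detrended within its array (the submitters' processing notes name version 10.5); nothing was normalized between arrays. A further table deposited by the authors holds log2 values; how it was scaled is not stated, but its columns share a maximum of 18.8, have medians of 7.61 to 7.64 and follow the order of the median spot signal (rank correlation at least 0.99998). It served as an alternative.

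Control spots and spots marked as outliers (1.24% to 2.51% per array) were left out. Processed intensity was expressed relative to the 75th percentile of its array, held at a floor of -7.49 on the log2 scale, and averaged over spots of a probe. Probes were named through RefSeq accessions of GRCm38.p6 (24844 of 41174 with 1 symbol, 0 with several, 16330 with none). A gene was read from its brightest probe and tested when well above background on at least 3 arrays (13541 genes) with at least 2 unmarked values in each group (13341). Groups were compared with limma 3.58.1 in R 4.3.3, and p-values adjusted by Benjamini-Hochberg with a threshold of 0.05; SE is limma's moderated standard error. Precision is limited by the number of arrays.

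The planned normexp alternative used the median spot signal, since the files hold no mean. The 10 genes, the lists, the tests and the alternatives were chosen with earlier results of these data known. Genes named are Otx2, the 10 genes with every probe, up to 4 per list with the smallest p, and the 5 most alike in profile; 1 list gene is not reported here, and list genes named besides these were chosen after their values were seen. Replicate numbers did not pair the samples: deviations of same-numbered samples correlated at 0.19, -0.578 and 0.038, and litters cross the numbers. Nothing says more than 1 array came from an embryo.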

Additional observations from a re-analysis of the deposited data

Results flagged for a closer look

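Control replicate 1 stood apart above the other 3 controls on the brighter Neurod2 probe and for Neurod6. The brighter Neurod2 probe read 4.17 there, and the gap to the next control was 0.85 of the whole control range. Neurod6 read 2.91, with a gap of 0.833 of the range. The limit for 4 samples is 0.829, and chance passes it in about 1 of 20 groups; 11 probes were examined, and the cKO group, with 3 samples, cannot be examined this way. The dimmer Neurod2 probe did not pass the limit. It read -0.03 in control replicate 1, against -0.26, -0.73 and -0.54 in control replicates 2 to 4. Without control replicate 1 the cKO minus control difference was -0.71 for the brighter Neurod2 probe and -0.62 for Neurod6.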

How the results depend on the processing

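Across 24 alternatives 0 of the tested genes of the list passed. Litter as a block and litter 2 alone are the same comparison, since only litter 2 held both groups. Both gave -0.55 for Neurod6 and -0.55 for Neurod2. Neurod6 stayed between -0.84 and -0.55 and Neurod2 between -0.99 and -0.48, negative in all 24, with lowest adjusted p of 0.0776 (variance trend) and 0.0789 (without cKO replicate 1). Slc17a7 ran from -1.06 to -0.25, Fezf2 from -0.33 to -0.18, Neurog1 from 0.27 to 0.57 and Slc17a6 from 0.06 to 0.25, with no change of sign. Taking every probe separately, an alternative chosen after seeing the data, changed no call. Values near 0 changed sign. Neurod1 was -0.0052 with normexp, -0.0528 with median centring, -0.045 in the authors' deposited table and -0.0774 within slide 1, and -0.0284 to 0.12 leaving out 1 array. Tbr1 was 0.0846 within slide 2, and -0.11 to 0.13 leaving out 1 array. Eomes was 0.0225 in the authors' deposited table and 0.0402 with marked spots kept, and -0.0532 to 0.0247 leaving out 1 array.

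The median of the list was -0.27 within slide 1 and -0.21 to -0.0231 leaving out 1 array. The count at an unadjusted p under 0.05, 4 in all, was 0 within slide 1, 1 with litter as a block, 1 within litter 2 and 2 to 4 leaving out 1 array (2 without control replicate 1 or cKO replicate 3). The count without overlap was 3 of 9 in all. It was 7 of 9 within slide 1, 6 of 8 within slide 2 and 5 of 8 within litter 2. Leaving out 1 array gave 3 to 5. With fewer arrays, groups separate more easily, and the share of all genes without overlap was not counted in these settings. These counts are therefore not read as results about the list. Slide 1 has 1 cKO array, so its spread comes from controls alone.

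Over all genes 28 were called (12 higher, 16 lower); with quantile normalization 7 were higher and 17 lower. The count became 51 with normexp, 43 in the authors' deposited table, 11 with no filter on dim probes, 17 with slide as a block, 51 with the variance trend and 17 with the mesenchyme covariate. It became 0 within slide 1, within slide 2, with litter as a block and within litter 2 (412, 1210, 824 and 810 at an unadjusted p under 0.05), and 0 to 25 leaving out 1 array: 25 without cKO replicate 1, 3 without cKO replicate 2, 12 without control replicate 1, and 0 without cKO replicate 3 or control replicate 2, 3 or 4 (875, 1292, 1086 and 1461 at an unadjusted p under 0.05). With the replicate number as a block limma called 0 genes (1490 at an unadjusted p under 0.05), Neurod1 was -0.018, Tbr1 0.0183 and Eomes 0.0088; the numbers do not pair the samples. Otx2 stayed positive throughout (1.28 to 1.62) and passed in 10 of the 24. The causes were not tested.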
